A study of Mus musculus with 15 samples.

Results

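The genes described here are 8 components of the cytosolic DNA sensing pathway in endothelial cells of the mouse heart, chosen by gene symbol from the 23337 genes of a count table. They are E330016A19Rik (Cgas), Tmem173 (Sting1), Tbk1, Ikbke, Irf3, Trex1, Samhd1 and Enpp1, and all 8 had enough reads to be tested. CD45- CD31+ cells were sorted from hearts 4 weeks after transverse aortic constriction (TAC), which narrows the aorta and loads the left ventricle with pressure, or after a sham operation. The WT mice were Cad5CreERT2-/- STINGfl/fl, so they carried the floxed STING alleles and no Cre, and the KO mice were Cad5CreERT2+/+ STINGfl/fl, in which an inducible Cre is driven by the promoter of the endothelial cadherin gene. The groups were WT sham (n = 3), WT TAC (n = 5), KO sham (n = 3) and KO TAC (n = 4), each library from 1 mouse. Sex, age and the induction of Cre were not given in the sources used here. WT and KO mice carry separate series of numbers and every KO mouse carries the Cre driver, so the loss of STING, the Cre and any difference in how the 2 sets of mice were handled cannot be told apart.

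In this pathway cGAS, the product of Cgas, binds double-stranded DNA in the cytosol and makes the cyclic dinucleotide cGAMP. cGAMP binds STING on the endoplasmic reticulum, and STING then moves to the Golgi and recruits the kinase TBK1, which phosphorylates the transcription factor IRF3. IKKε, the product of Ikbke, is the closest relative of TBK1 and can also phosphorylate IRF3. TREX1 degrades cytosolic DNA, SAMHD1 hydrolyses deoxynucleotides and limits the release of DNA from stalled replication forks, and ENPP1 hydrolyses cGAMP outside cells. Endothelial cells are among the cells in which STING is known to be active.

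Total counts ran from 1362346 in WT sham 133 to 15670319 in WT TAC 134. A pair of KO sham libraries stood apart: 206 genes in KO sham 348 and 319 in KO sham 350 had no read although at least 10 were expected from the other libraries, against 3 to 28 genes in each of the other 13. The summed level of 11 endothelial markers lay between 16100 and 18600 CPM (counts divided by library size and scaled alike) in the 11 libraries outside KO TAC and between 14500 and 15400 CPM in KO TAC, below every other library. The 11 did not move alike: 7 were called lower in KO TAC than in WT TAC and 1, Pecam1, was called higher. The sum of 18 leukocyte markers was 18 CPM or less in every library. Fibroblast markers summed to 117 to 176 CPM in WT sham, 308 to 391 in WT TAC, 92 to 256 in KO sham and 133 to 237 in KO TAC. Cardiomyocyte markers summed to 317 to 369 CPM in WT sham and 248 to 286 in WT TAC. In KO sham and KO TAC they summed to 269 to 375 and 122 to 216 CPM. Pericyte and smooth muscle markers summed to 132 to 170 CPM in WT sham and 133 to 186 in WT TAC. In KO sham and KO TAC these summed to 164 to 259 and 119 to 178 CPM. In such bulk samples a smaller number of cells of a type and less RNA per cell cannot be told apart.

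Levels were first compared between the genes per length of transcript, as TPM (shares of the transcripts in a library, scaled by exon length), over all 15 libraries. Irf3 was highest at 117 ± 16.3 TPM (SD, n = 15), followed by Samhd1 at 99.5 ± 14.5 and Tbk1 at 85.4 ± 8.01. The TPM ranges of these 3 overlapped, from 88.9 to 144 for Irf3, from 72.6 to 118 for Samhd1 and from 72.7 to 98.6 for Tbk1. Tmem173 averaged 63.5 ± 28.1 TPM, but this mean joins 94.9 ± 6.1 TPM in WT TAC (n = 5) with 38.1 ± 6.46 TPM in KO TAC (n = 4). Trex1, at 25.3 ± 5.12 TPM, overlapped Tmem173 in KO libraries. Below them stood Cgas at 7.2 ± 2.67 TPM, the sensor being scarcer than the adaptor and the factor it acts through at the level of RNA. Ikbke, at 2.04 ± 2.08 TPM, and Enpp1, at 0.898 ± 0.683 TPM, were lowest, had overlapping ranges and rested on 300 and 168 reads in all. Unless TPM is named, every level below is in CPM, scaled by the trimmed mean of M values (TMM), which is compared only within a gene. The TPM scale adds 0.165 to a log2 difference between KO TAC and WT TAC and 0.172 to one between KO sham and WT sham.

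**Figure D1:**
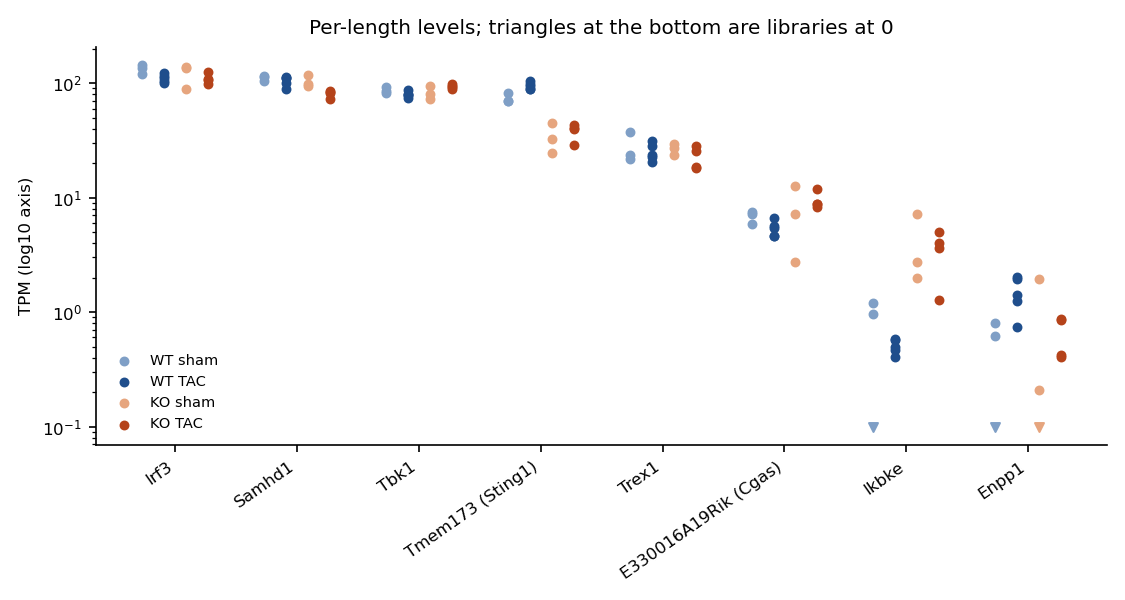
TPM of the 8 genes (log10 axis) in each of 15 libraries, coloured by group, in order of the mean. Irf3, Samhd1 and Tbk1 lead, Ikbke and Enpp1 are lowest, and triangles mark WT sham 133 and KO sham 350, in which a gene had no read.

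Besides the floxed Tmem173, Samhd1 and Ikbke differed between KO TAC and WT TAC, and sequence before each gene is shown to place these members in the genome beside their values. RefSeq windows of 250 bases on GRCm38.p6 were used, and only the bases before both the RefSeq gene and the gene as counted are printed, 5′ to 3′ along the gene. For Samhd1 these are 124 bases at chr2:157135223-157135346 on the minus strand, with a GC content of 65.3%, since the other 126 bases of the window lie inside the counted gene. The capitals mark a match to the GAS motif TTCNNNGAA, 235 bases before the RefSeq start and 109 bases before the start of the counted gene. For Ikbke they are 212 bases at chr1:131279602-131279813 on the minus strand, with a GC content of 56.6%, since the other 38 lie inside the RefSeq gene.
Samhd1: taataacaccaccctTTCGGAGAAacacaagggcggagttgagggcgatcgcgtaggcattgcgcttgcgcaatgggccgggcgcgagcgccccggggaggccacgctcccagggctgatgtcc
Ikbke: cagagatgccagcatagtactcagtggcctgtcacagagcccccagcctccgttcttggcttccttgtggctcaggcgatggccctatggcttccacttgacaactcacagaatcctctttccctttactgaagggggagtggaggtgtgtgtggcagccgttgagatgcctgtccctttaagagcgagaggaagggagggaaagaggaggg
Both strands of the full windows and of those of Cgas, Tbk1, Irf3, Trex1 and Enpp1 were searched for the GAS motif, for the core of the interferon-stimulated response element (GAAA, 2 free bases and GAAA), and for a kappaB motif (GGGA, 1 free base and TTTCC). The Samhd1 match was the only one in these windows. Tmem173 had no window in the reference used and was not searched. Of 32851 RefSeq promoter windows of this length, 7.02% held the GAS letters, 2.98% the response element core and 0.356% the kappaB letters. A match is a run of letters and shows no binding.

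Tmem173 is the floxed gene and lies at chr18:35733678-35740554 on the minus strand of mm10, with 2302 exonic bases. It was read at 53.9, 65.6 and 56.4 CPM in WT sham and at 75.5, 73.8, 71.8, 82 and 70.3 CPM in WT TAC. In KO sham it was read at 22.9, 31.4 and 17.3 CPM and in KO TAC at 30.4, 28.1, 19.6 and 29.2 CPM. Every KO library lay below every WT library. The level in KO TAC was 35.9% of that in WT TAC, with a 95% interval from 29.5% to 43.5% (log2 fold change -1.48 ± 0.14 SE, edgeR adjusted p = 5.78e-08). In KO sham it was 41.2% of that in WT sham, with an interval from 32.1% to 52.9% (log2 fold change -1.28 ± 0.17, adjusted p = 6.99e-05). The counts sum all exons, and which exons are floxed is not given in the sources used here, so the level of the deleted part was not measured.

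TAC moved Tmem173 little beside the genotype. In WT mice its 5 TAC values all lay above its 3 sham values, with means of 74.7 ± 4.55 CPM and 58.6 ± 6.16 CPM. It was the only 1 of the 8 genes whose WT groups did not overlap, against 14.6% of all genes. The difference of 0.34 ± 0.15 on the log2 scale had an exact two-sided permutation p of 0.0179, the smallest that 56 splits can give. That p follows from the lack of overlap and adds nothing to it. It did not pass the test across all genes (adjusted p = 0.263), whereas a fit to the WT libraries alone called it (adjusted p = 0.0342). In KO mice the groups overlapped (log2 fold change 0.14 ± 0.16, adjusted p = 0.635). The TAC effects of the 2 genotypes differed by -0.20 ± 0.22 on the log2 scale, with a 95% interval from -0.65 to 0.25 (adjusted p = 0.723).

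**Figure D2:**
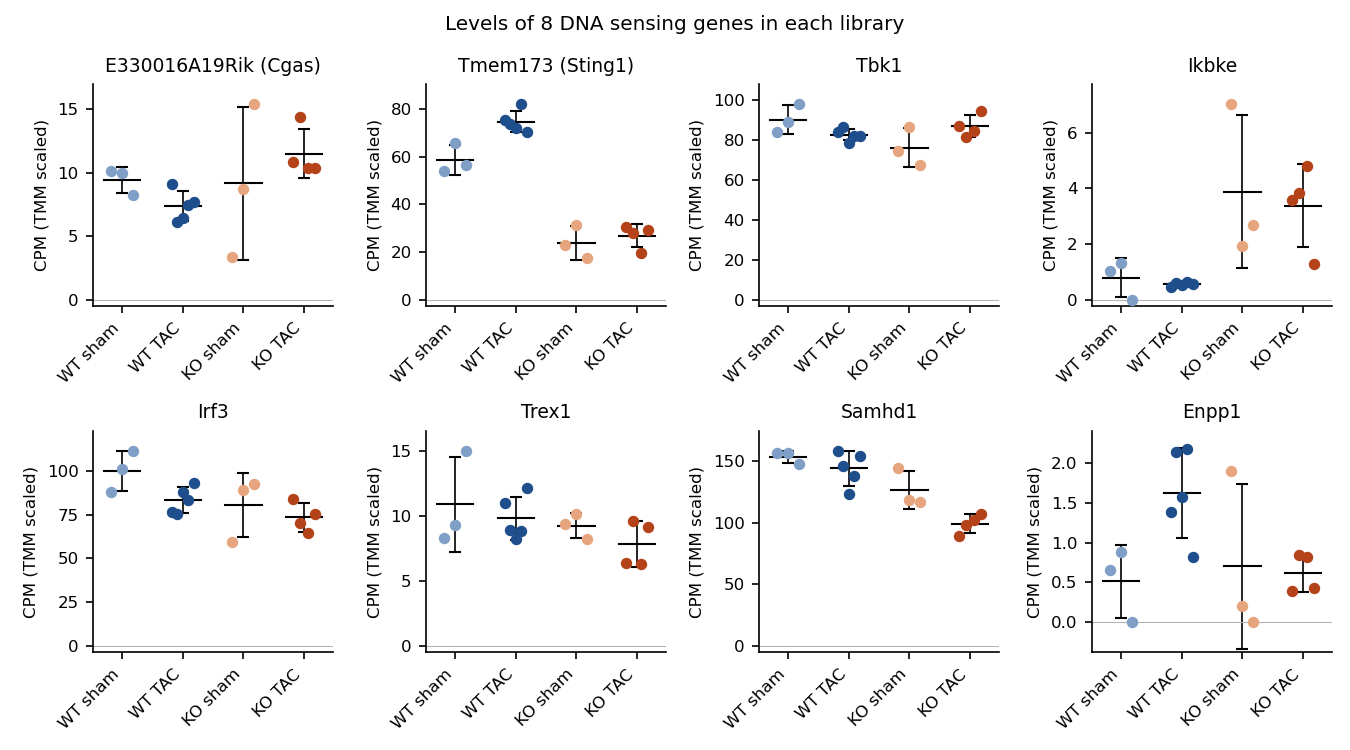
CPM of each gene in each library, by group, with the mean as a horizontal line and the SD as a bar; the vertical axes differ between genes. Tmem173 is lower in all KO libraries, Ikbke is higher in most of them, and Samhd1 is lowest in KO TAC.

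Of the 8 genes, 3 passed the test between KO TAC and WT TAC, Tmem173 and Samhd1 lower and Ikbke higher. The median log2 difference of the 8 was -0.25, against -0.02 over all genes. The 3 called are 37.5% of the genes, read against 29.8% of all 12471 genes tested, so a count of this size is near what all genes showed. The count and the median include Tmem173, the floxed gene, whose lower level belongs to the design. The groups of KO TAC and WT TAC did not overlap for 4 of the 8, these 3 and Cgas, against 30.7% of all genes. Between KO sham and WT sham 1 of the 8 was called, the floxed Tmem173 itself, against 9.21% of all genes. Groups did not overlap for 3 of 8, Tmem173 among them, against 22.4%.

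The sensor gene Cgas is listed as E330016A19Rik, at chr9:78430518-78443147 on the minus strand of mm10. It was read at 10.1, 9.97 and 8.27 CPM in WT sham and at 9.12, 6.08, 6.46, 7.45 and 7.69 CPM in WT TAC. KO TAC libraries held 10.8, 14.4, 10.4 and 10.4 CPM, all above the WT TAC libraries. KO sham libraries held 3.35, 8.72 and 15.4 CPM, a wider spread than in any other group, and the lowest and highest were KO sham 348 and KO sham 350, the libraries that stood apart. The log2 difference of 0.65 ± 0.27 between KO TAC and WT TAC missed the threshold (adjusted p = 0.074). It passed without KO sham 348 (adjusted p = 0.0113), without KO sham 350 (adjusted p = 0.0158) and without both (adjusted p = 0.00235), which changes the estimate of the spread and not the groups compared. It also passed with the KO TAC and WT TAC libraries fitted alone (adjusted p = 0.0042) and with limma voom quality weights (adjusted p = 0.00674). Over all fits with a single library left out, the edgeR adjusted p of this difference ran from 0.0113 to 0.215. Between KO sham and WT sham the difference was -0.14 ± 0.35, with a 95% interval from -0.87 to 0.59.

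Of the 2 kinases, Tbk1 passed the test in none of the 7 comparisons and Ikbke was higher in KO TAC than in WT TAC. Tbk1, at chr10:121546456-121586794 on the minus strand, was read at 83.7, 88.7 and 97.8 CPM in WT sham and at 83.8, 86.4, 78.4, 82 and 82 CPM in WT TAC. Its KO sham values were 74.2, 86.5 and 67.2 CPM and its KO TAC values 86.9, 81.3, 84.5 and 94.5 CPM. The groups overlapped in each of the 4 comparisons of 2 groups. Between KO TAC and WT TAC the 95% interval of the log2 difference ran from -0.10 to 0.24 (adjusted p = 0.544). The TAC effects of the 2 genotypes differed by 0.29 ± 0.13, which did not pass the test (adjusted p = 0.299). Between KO sham and WT sham the log2 difference was -0.22 ± 0.10 (adjusted p = 0.189), and between KO TAC and KO sham it was 0.18 ± 0.09 (adjusted p = 0.221). Without KO sham 349 both were called, at -0.33 (adjusted p = 0.0376) and 0.29 (adjusted p = 0.04).

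Ikbke lies at chr1:131254602-131279563 on the minus strand. It was read at 1.04, 1.33 and 0 CPM in WT sham, the 0 being WT sham 133, in which a count of 0 allows up to 2.2 CPM. WT TAC libraries held 0.443, 0.601, 0.526, 0.636 and 0.55 CPM, from 4 to 9 reads each. KO sham libraries held 7.03, 1.93 and 2.67 CPM and KO TAC libraries 3.59, 3.82, 4.8 and 1.28 CPM. The highest KO sham value, from 63 reads, was that of KO sham 348, a library that stood apart. All KO TAC values lay above all WT TAC values, and the lowest, in KO TAC 354, rested on 9 reads. The log2 difference between KO TAC and WT TAC was 2.61 ± 0.51 with a 95% interval from 1.55 to 3.66 (adjusted p = 0.000489), and the call held without each library in turn. The exact two-sided permutation p was 0.00794, the smallest that 126 splits can give, which follows from the lack of overlap. Between KO sham and WT sham the difference was 1.90 ± 0.64 (adjusted p = 0.0659). It was called by DESeq2 (adjusted p = 0.0358) and without KO sham 349 (adjusted p = 0.0212) or KO sham 350 (adjusted p = 0.0353), and without both KO sham 348 and KO sham 350 it was 0.83. With single libraries left out, the sham difference of Ikbke ran from 1.089 to 2.234 and its edgeR adjusted p from 0.0212 to 0.326. The TAC effects of the genotypes differed by 0.71 ± 0.80 (adjusted p = 0.733).

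Leukocytes also express Ikbke. The leukocyte markers summed to 10.1 to 16 CPM in WT TAC and to 9.97 to 17.7 CPM in KO TAC, and Ptprc, which encodes CD45, the marker sorted against, was read at 0.723 ± 0.38 CPM (n = 5) and 1.45 ± 0.937 CPM (n = 4). Of the 18 markers 6 were tested, and 1 was called between KO TAC and WT TAC, against 29.8% of all genes. It was the macrophage gene Cd68, at 0.817 to 4.14 CPM in WT TAC and 4.29 to 7.13 CPM in KO TAC. The median log2 difference of the 6 was -0.176, against -0.024 over all genes. Means were lower in KO TAC for Lyz2 (2.9 to 1.75 CPM), Mrc1 (1.52 to 0.997 CPM), Csf1r and Cd14. The part of these cells in the Ikbke difference was not tested.

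Irf3, the transcription factor at the end of the kinase step, lies at chr7:44997648-45002848 on the plus strand. It was read at 88, 101 and 111 CPM in WT sham, at 76.5, 75.4, 87.8, 83.4 and 92.9 CPM in WT TAC, at 59.4, 89.2 and 92.5 CPM in KO sham and at 84.2, 70.2, 64.5 and 75.2 CPM in KO TAC. The groups overlapped in each comparison of 2 groups, and none passed the test. Averaged over surgery the log2 difference of Irf3 between KO and WT was -0.24 ± 0.09 (adjusted p = 0.0527), just outside the threshold. Leaving out single libraries moved this p between 0.0221 without KO sham 350 and 0.162 without KO sham 348, and it passed without WT sham 131, WT TAC 135, KO sham 349 or KO TAC 351 as well. It also passed with no filter on low counts (adjusted p = 0.0456) and with voom weights (adjusted p = 0.0451). On the TPM scale the genotypes lay closer. Irf3 averaged 111 ± 8.75 TPM in WT TAC and 110 ± 11.2 TPM in KO TAC. In WT sham and KO sham it averaged 133 ± 12.2 and 121 ± 27.7 TPM.

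Among the genes that clear DNA or nucleotides, Samhd1 was lower in KO TAC than in WT TAC and Trex1 did not pass the test in any comparison. Samhd1, at chr2:157097529-157135222 on the minus strand, was read at 156, 156 and 147 CPM in WT sham and at 158, 146, 123, 138 and 154 CPM in WT TAC. KO sham libraries held 144, 118 and 117 CPM and KO TAC libraries 89.3, 98.1, 102 and 107 CPM. KO TAC was the lowest group, with no value as high as any in the other 3 groups. Its level was 68.8% of that in WT TAC, with a 95% interval from 60.7% to 77.9% (log2 fold change -0.54 ± 0.09, adjusted p = 5.73e-05), and the call held without each library in turn. In CPM the KO sham values also lay below the WT sham values, with a log2 difference of -0.28 ± 0.11. This difference did not pass the test (adjusted p = 0.105) but did without KO sham 348 (adjusted p = 0.0412). On the TPM scale the sham groups overlapped, with KO sham 348 at 118 TPM and the WT sham libraries at 116, 113 and 105 TPM. Samhd1 averaged 105 ± 10.9 TPM in WT TAC and 81 ± 5.77 TPM in KO TAC.

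Samhd1 was the 1 gene of the 8 called between KO TAC and KO sham, against 9.59% of all genes, with a log2 difference of -0.36 ± 0.10 (adjusted p = 0.0243). The adjusted p was 0.131 with KO sham 348 left out, 0.0787, 0.0667 and 0.0512 with KO TAC 351, 352 or 353 left out, and 0.429 with both KO sham 348 and KO sham 350 left out, so the call did not hold in these fits. The groups of KO TAC and KO sham did not overlap for Samhd1 alone among the 8 genes, against 17.6% of all genes. In WT mice the difference between TAC and sham was -0.09 ± 0.09 (adjusted p = 0.732), and the TAC effects of the genotypes differed by -0.26 ± 0.14 (adjusted p = 0.386). The change with TAC is therefore not shown to differ between WT and KO. The endothelial marker sum was lowest in the same 4 libraries as Samhd1, those of KO TAC. Of its 11 markers 7 were lower in KO TAC than in WT TAC and 1, Pecam1, was higher. Pecam1 averaged 1910 ± 56.9 CPM in WT TAC and 2190 ± 56.3 CPM in KO TAC. Cdh5, which was not called, averaged 3950 ± 161 and 4100 ± 167 CPM. The part of the lower marker sum in the Samhd1 difference was not tested.

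Trex1, at chr9:109057932-109059723 on the minus strand, was read at 8.3, 9.31 and 15 CPM in WT sham and at 11, 8.89, 8.19, 8.81 and 12.1 CPM in WT TAC. It was read at 9.38, 10.1 and 8.22 CPM in KO sham and at 6.37, 9.6, 6.33 and 9.12 CPM in KO TAC. The groups overlapped throughout, and the highest value, in WT sham 133, rested on 20 reads. Between KO TAC and WT TAC the 95% interval of the log2 difference ran from -0.75 to 0.11 (adjusted p = 0.264).

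Enpp1, the cGAMP hydrolase, lies at chr10:24641411-24712102 on the minus strand and was near the limit of detection. It was read at 0.66, 0.887 and 0 CPM in WT sham, at 1.39, 2.14, 1.58, 2.18 and 0.824 CPM in WT TAC, at 1.9, 0.203 and 0 CPM in KO sham and at 0.398, 0.839, 0.817 and 0.428 CPM in KO TAC. No library held more than 32 reads, and the counts of 0 in WT sham 133 and KO sham 350 allow up to 2.2 and 0.625 CPM. WT TAC libraries were mostly the highest, but the lowest of them overlapped KO TAC. Neither the difference of -1.38 ± 0.66 on the log2 scale between KO TAC and WT TAC (adjusted p = 0.124) nor that of 1.23 ± 0.77 between WT TAC and WT sham (adjusted p = 0.495) passed the test. The first was called without KO sham 348 (adjusted p = 0.044), without both KO sham 348 and KO sham 350 (adjusted p = 0.025), with the 2 groups fitted alone (adjusted p = 0.015) and with voom weights (adjusted p = 0.0306). Over all fits with a single library left out, the edgeR adjusted p between KO TAC and WT TAC ran from 0.044 to 0.26. Of 10 fibroblast markers 6 were higher in WT TAC than in WT sham and 6 lower in KO TAC than in WT TAC, and their part in the Enpp1 values was not tested.

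**Figure D3:**
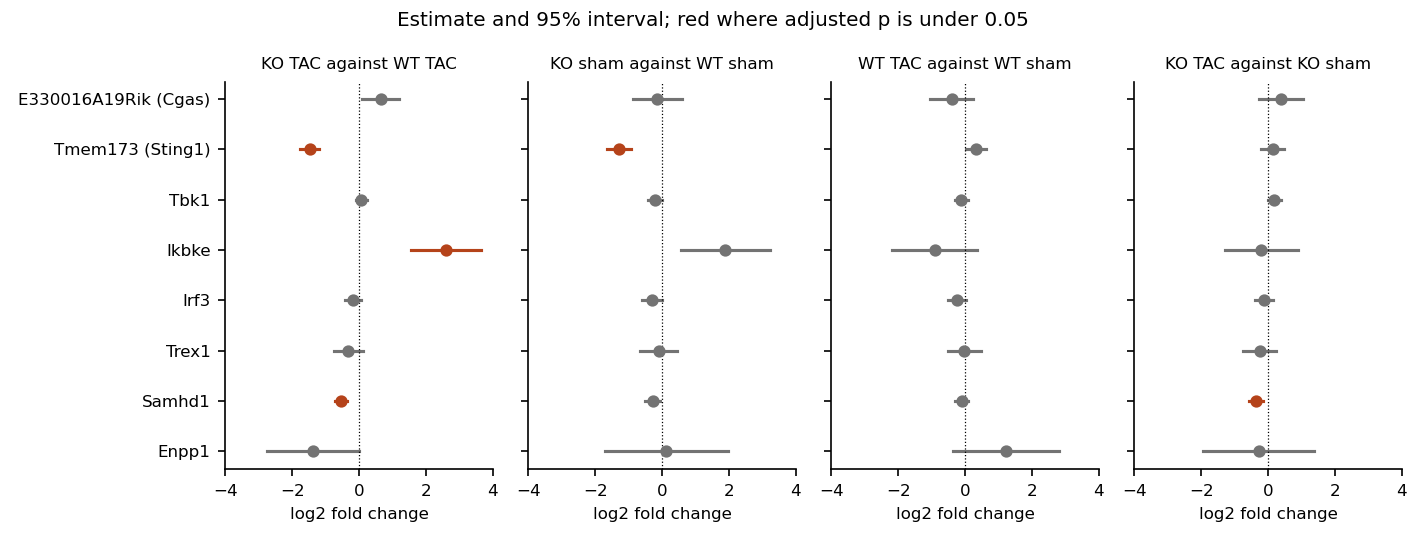
Log2 fold change of each gene with its 95% interval in the 4 comparisons of 2 groups; red marks an adjusted p under 0.05. Tmem173, Ikbke and Samhd1 are called between KO TAC and WT TAC, Tmem173 between the sham groups, Samhd1 between KO TAC and KO sham, and no gene between WT TAC and WT sham.

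Between WT TAC and WT sham 0 of the 8 genes passed the edgeR test, against 2.59% of all genes, and 1 had an unadjusted p under 0.05, Tmem173. DESeq2 also called 0. The difference of the TAC effects called 0 of the 8, against 0.69% of all genes, with 1 at an unadjusted p under 0.05, Tbk1, and 0 by DESeq2. Averaged over surgery, KO against WT called the floxed Tmem173, Ikbke and Samhd1, at 37.5% of the genes against 30.8% of all. The averaged log2 differences were -1.38 ± 0.11 for Tmem173 (adjusted p = 7.1e-09), 2.25 ± 0.41 for Ikbke (adjusted p = 0.00024) and -0.41 ± 0.07 for Samhd1 (adjusted p = 9.07e-05). TAC against sham averaged over genotype called Samhd1, with a log2 difference of -0.23 ± 0.07 (adjusted p = 0.0356), against 10.7% of all genes. The call did not hold when 1 of 9 libraries was left out, each of the 3 WT sham libraries, each of WT TAC 136 and 137, KO sham 348, or each of KO TAC 351, 352 and 353, and the highest adjusted p was 0.101, without KO sham 348. These comparisons share libraries, so their values are not independent of each other.

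The wider pathway was followed in 7 lists of 102 genes, of which 91 were tested. Between KO TAC and WT TAC 10 of the 91 rose and 17 fell, together 29.7% against 29.8% of all genes. Between KO sham and WT sham 4 rose and 11 fell, 16.5% against 9.21% of all genes. That sham count was 5 without WT sham 132, 9 without WT sham 133, 9 without KO sham 348 and 1 without both KO sham 348 and KO sham 350. The sham count over all genes, 1148, moved as well, to 505 without WT sham 132, 599 without WT sham 133 and 742 without KO sham 348. Between WT TAC and WT sham 0 of the 91 were called by edgeR and by DESeq2, and 13 had an unadjusted p under 0.05. Between KO TAC and KO sham 4 rose and 2 fell, 6.59% against 9.59% of all genes. Over all genes this comparison called 1196, and 1092, 2372 and 876 without KO sham 348, 349 or 350. Without KO TAC 352, 353 or 354 it called 697, 695 and 1009 of all genes. The count in the lists was 3, 13 and 2 without KO sham 348, 349 or 350. The list count was 2, 2 and 3 without KO TAC 352, 353 or 354. It was 0 without both KO sham 348 and KO sham 350.

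In the list of type I interferon genes and early targets 9 of 13 genes were tested. With TAC in both genotypes, 4 fell in KO against WT, none rose and 5 were not called, against 29.8% of all genes called. The median log2 difference was -0.24, against -0.02 over all genes. Rsad2, which encodes the antiviral enzyme viperin, fell from 323 ± 16.4 CPM in WT TAC to 183 ± 33.8 CPM in KO TAC (log2 fold change -0.83 ± 0.11, adjusted p = 7.41e-06). Ifit3 and Ifit1 fell from 54.1 ± 4.54 to 33.4 ± 7.62 CPM (-0.70 ± 0.13) and from 65.4 ± 5.77 to 44.4 ± 9.82 CPM (-0.57 ± 0.13). Isg15, a ubiquitin-like modifier, fell from 36.1 ± 3.69 to 26.6 ± 5.92 CPM (-0.45 ± 0.15, adjusted p = 0.0265), a call lost without KO TAC 351 (adjusted p = 0.13) and without 4 other libraries. The same 4 genes were called lower between KO sham and WT sham, where 9.21% of all genes were called. There Isg15 fell from 38.5 ± 4.27 to 18.6 ± 5.18 CPM (-1.04 ± 0.19, adjusted p = 0.00168). Its call held without each single library but not without both KO sham 348 and KO sham 350. The sham calls of Rsad2 (-0.53 ± 0.14), Ifit3 (-0.62 ± 0.17) and Ifit1 (-0.59 ± 0.17) were lost without WT sham 132 (adjusted p = 0.11, 0.159 and 0.242). Counting that library, they were lost in 2, 3 and 2 of the fits with a single library left out. All 3 calls were also lost with the groups compared alone, with voom weights and without both KO sham 348 and KO sham 350. Ifnb1 and Ifna4 had too few reads to be tested.

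Among kinase adaptors and transcription factors 2 of 19 rose and 3 fell between KO TAC and WT TAC, against 29.8% of all genes called. The list median was -0.03. Irf7, the interferon regulatory factor that is itself interferon-inducible, fell from 135 ± 13.6 to 69.5 ± 9.54 CPM (log2 fold change -0.96 ± 0.12, adjusted p = 4.19e-06). Irf1 fell from 260 ± 25 to 178 ± 36.9 CPM (-0.55 ± 0.12). Traf3, an adaptor for TBK1 that restrains noncanonical NF-κB signalling, rose from 36.3 ± 3 to 59.7 ± 5.2 CPM (0.71 ± 0.09, adjusted p = 3.16e-06). Nfkb2, a subunit of noncanonical NF-κB, rose by 0.30 ± 0.08.

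Among regulators of STING and its trafficking 2 of 22 rose and 4 fell between KO TAC and WT TAC, against 29.8% of all genes called. The list median was -0.11. Rhbdf2, which encodes iRhom2, a partner that stabilises STING, rose from 158 ± 7.26 to 199 ± 14.8 CPM (0.33 ± 0.07). Nlrc3, which restrains STING, rose from 8.1 ± 4.88 to 18.1 ± 6.35 CPM (1.13 ± 0.32, adjusted p = 0.0102). Sar1a, a GTPase of the vesicles that leave the endoplasmic reticulum, fell from 143 ± 13.2 to 113 ± 7.54 CPM (-0.35 ± 0.08).

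Of 16 other DNA sensors tested, 2 rose and none fell, against 29.8% of all genes called, with a list median of 0.05. Lrrfip1 rose from 80.3 ± 8.37 to 116 ± 5.97 CPM (0.53 ± 0.08, adjusted p = 5.44e-05) and Prkdc, the catalytic subunit of DNA-dependent protein kinase, from 38.1 ± 5.79 to 58.8 ± 6.56 CPM (0.63 ± 0.11). Of 10 nucleases and DNA clearance genes tested, 3 fell and none rose, near the 29.8% of all genes, with a list median of -0.14. Dnase1l1 fell from 30.9 ± 1.08 to 17.5 ± 1.11 CPM (-0.81 ± 0.11, adjusted p = 7.07e-06). The calls of the other 2, Rnaseh2c at -0.69 ± 0.21 and Dnase2a at -0.61 ± 0.22, were lost without KO TAC 352 (adjusted p = 0.0768 and 0.135) and without 3 and 8 other libraries, and Dnase2a was not called by DESeq2.

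Genes of cGAMP hydrolysis and transport moved both ways, with 3 of 10 higher and 3 lower in KO TAC, against 29.8% of all genes called. The list median was 0.03. Smpdl3b, related to the mouse cGAMP hydrolase encoded by Smpdl3a, rose from 1.84 ± 0.254 to 6.1 ± 0.887 CPM (1.73 ± 0.31, adjusted p = 0.000202). Smpdl3a itself fell from 140 ± 12.8 to 89.5 ± 9.77 CPM (-0.65 ± 0.11). Gja1, the connexin 43 gene, whose gap junctions pass cGAMP between cells, fell from 446 ± 60.3 to 266 ± 26.7 CPM (-0.74 ± 0.10). Abcc1, an exporter of cGAMP, rose from 43.6 ± 4.5 to 61.9 ± 4.01 CPM (0.50 ± 0.10).

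Of 5 genes of mitochondrial DNA packaging and release, 1 was called between KO TAC and WT TAC, against 29.8% of all genes. The list median was 0.07. Bax, the pore-forming protein of the outer mitochondrial membrane, rose from 45.6 ± 4.48 to 126 ± 6.59 CPM (1.47 ± 0.09, adjusted p = 6.91e-11). In the sham groups Bax rose from 50 ± 4.23 to 104 ± 10.1 CPM (1.08 ± 0.11, adjusted p = 2.63e-06), a call that held without each library and without both KO sham 348 and KO sham 350.

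**Figure D4:**
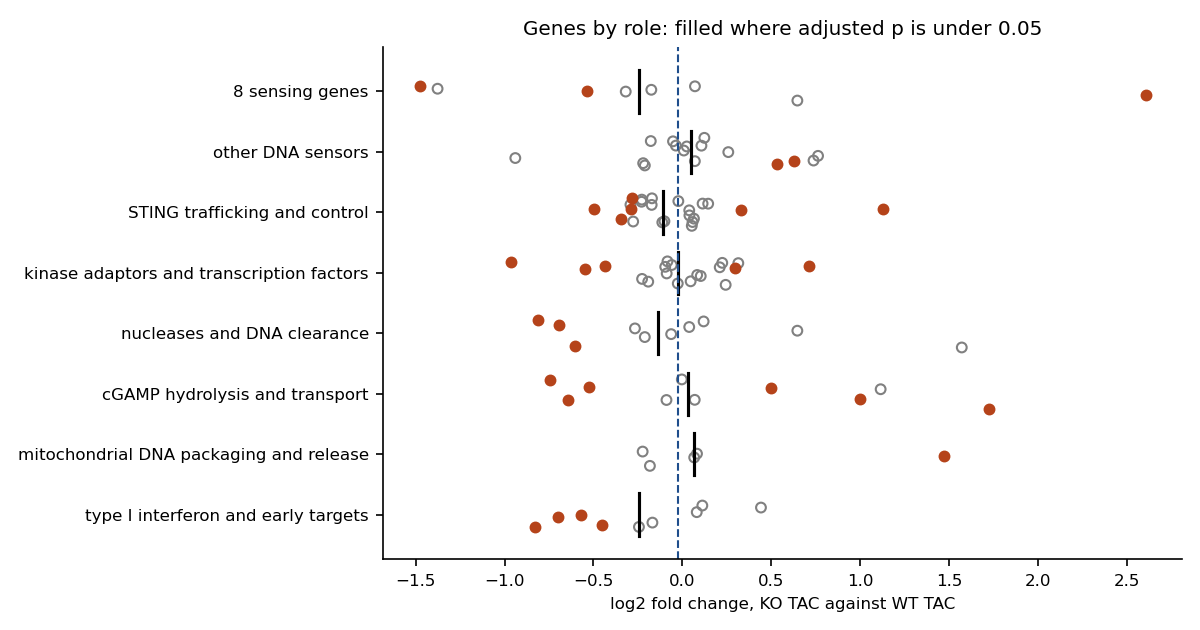
Log2 fold change of each tested gene between KO TAC and WT TAC by list, with filled points for an adjusted p under 0.05, black lines for list medians and a dashed line for the median of all genes. Called genes lie on both sides of 0 in 4 of the 8 lists, and the interferon targets called are all lower.

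For the 3 genes called between genotypes, the genes with the most similar pattern were found by the root mean square (RMS) difference of log2 CPM, centred on each gene's mean, over 15 libraries. For Tmem173, whose own RMS was 0.762, they were Scarna10 at 0.233, Rarres1 at 0.306 and Rbp7 at 0.308. Rbp7, a retinol binding protein gene, averaged 118 and 135 CPM in WT sham and WT TAC, and 55.2 and 64.1 CPM in KO sham and KO TAC. For Ikbke, with an own RMS of 1.339, they were Mapkapk3 at 0.514, Ube2t at 0.595 and Mastl at 0.599. For Samhd1, with an own RMS of 0.266, they were Ifih1 at 0.119, Actr5 at 0.119 and Tnfsf10 at 0.12. Ifih1, which encodes the RNA sensor MDA5, averaged 152 and 145 CPM in the WT groups, and 131 and 114 CPM in KO sham and KO TAC. The likeness was chosen from these same libraries and is a description.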

How the data were processed

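RNA of CD45- CD31+ cells sorted from 15 mouse hearts was isolated with RNeasy Plus and made into TruSeq libraries, per the labels' protocols. HISAT2 2.1.0 and the build mm10 are named in the submitters' processing notes. The authors deposited a table of counts per gene, made with featureCounts 1.6.2 counting the reverse strand, per the file headers, without reads that map to several places or genes. Gene coordinates were copied from the table (mm10, 1-based), and no exon of the 8 genes overlapped another gene of the table. The table held 23337 genes, 6512 of them without a count.

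The test on counts was that of edgeR 4.0.16 under R 4.3.3 (filterByExpr with a minimum count of 10, TMM factors from 0.9599 to 1.031, 1 quasi-likelihood model of 15 libraries with 4 groups and 11 residual degrees of freedom). All tests were two-sided, with Benjamini-Hochberg adjustment over 12471 genes in each of 7 comparisons and a threshold of 0.05. The script was tested on simulated data. Single values were also compared by exact permutation tests on log2 CPM (prior count 2). With 3 mice against 3 the smallest such p is 0.1. TPM was computed from the counts and the exon lengths in the table. Intervals are 95%, and floors of 3 counts cover counting error only, since reads are not independent molecules. The p-values measure the spread between these mice.

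Members and lists were chosen with earlier results of these data known. Named are all 8 genes, up to 4 called genes per list with the smallest p, and the 3 genes most like each called member. A gene that this rule names is not reported here. Alternatives were DESeq2 1.42.0, another scaling, other filters, the groups compared alone, limma 3.58.1 voom with quality weights, each library left out and both KO sham 348 and 350 left out. The alternatives for the lists were added after seeing the data.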

Additional observations from a re-analysis of the deposited data

Results flagged for a closer look

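In the KO TAC group, 1 value of Cgas (E330016A19Rik) stood far from the others: KO TAC 352 held 14.4 CPM, against 10.4 to 10.8 CPM in the other 3 libraries, a gap of 0.912 of the range. This was 1 of 16 groups of 4 or 5 libraries examined, and chance flags about 1 in 20.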

How the results depend on the processing

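No paired analysis was possible because the mouse numbers differ between all groups. The calls of Tmem173 (both genotype comparisons), Samhd1 and Ikbke (KO TAC against WT TAC) held under every alternative run, except that Ikbke was not tested with a filter of at least 5 CPM in 3 libraries. The number of the 8 genes called between KO TAC and WT TAC, 3, was 5 with the groups compared alone, with voom weights and with both KO sham 348 and 350 left out, and 3 to 5 with single libraries left out. Between the sham groups it was 2 with DESeq2 and 1 to 3 with libraries left out. Between WT TAC and WT sham it was 1 with the groups alone. Between KO TAC and KO sham it was 0 with the groups alone, with voom and without both libraries, and 0 to 2 with libraries left out. Averaged over surgery it was 4 with no filter and with voom, and 3 to 5 with libraries left out (without KO sham 348 Cgas at 0.459 and Enpp1 at -1.845 were added), and for TAC averaged over genotype 0 with voom and without both, and 0 to 2 with libraries left out. The cause was not tested, except that leaving libraries out leaves fewer samples.

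Some differences that were not called changed sign. With voom weights the log2 differences of Trex1 and Enpp1 were 0.050 and -0.764 (sham groups), that of Trex1 was 0.045 (WT TAC against sham), those of Tmem173, Ikbke and Enpp1 were -0.035, 0.206 and 0.672 (KO TAC against sham), and that of Cgas was 0.139 (TAC averaged). Without both KO sham 348 and 350 they were 0.060 and -1.748 for Trex1 and Enpp1 (sham groups), 0.000 for Trex1 (WT TAC against sham), and -0.221, 0.832 and 1.574 for Tmem173, Ikbke and Enpp1 (KO TAC against sham). They were -0.023 and 0.373 for Irf3 and Enpp1 (difference of TAC effects), 0.021 for Tbk1 (KO averaged) and -0.048 for Tbk1 (TAC averaged). With the groups alone Trex1 was at 0.003 (WT TAC against sham), and with no filter Cgas was at 0.001 (TAC averaged).

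With single libraries left out, the sham difference ranged from -0.269 to 0.072 for Trex1, -2.31 to 0.616 for Enpp1 and -0.673 to 0.27 for Cgas. WT TAC against sham ranged from -0.197 to 0.145 for Trex1. KO TAC against sham ranged from -0.026 to 0.935 for Cgas, -0.54 to 0.594 for Ikbke, -0.764 to 2.15 for Enpp1 and -0.009 to 0.396 for Tmem173. The difference of TAC effects ranged from -0.056 to 0.235 for Irf3, -1.994 to 0.93 for Enpp1 and -0.349 to 0.058 for Tmem173. For Cgas KO averaged ranged from -0.004 to 0.459 and TAC averaged from -0.216 to 0.266. The 0 genes of the 7 lists called between WT TAC and WT sham became 3 with the groups alone, 9 with voom and 2 without both libraries. Depth limits Ikbke and Enpp1, which had no read in WT sham 133. The counts over all genes, beside which the 8 are read, also moved. Between the sham groups 1148 genes were called, 289 with the groups alone, 463 with voom and 394 without both libraries. Between WT TAC and WT sham it was 323, and 489 with DESeq2, 723 with the groups alone, 1146 with voom and 695 without both. Between KO TAC and KO sham it was 1196, and 374, 295 and 191 with the groups alone, with voom and without both. The difference of TAC effects called 86, and 315 with DESeq2, 174 with no filter and 3 without both, and TAC averaged called 1333 and 824 without both. With single libraries left out the sham count ran from 505 (without WT sham 132) to 2014 (without KO sham 349), WT TAC against sham from 109 (without WT sham 131) to 543 (without KO sham 350), KO TAC against sham from 695 (without KO TAC 353) to 2372 (without KO sham 349), and the difference of TAC effects from 25 (without WT sham 133) to 764 (without KO sham 349).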
